A study of Homo sapiens with 6 samples.

Results

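The genes described are those of the cytosolic ribosomal proteins, taken by symbol from the GENCODE annotation: protein-coding genes named RPL or RPS with a digit, without the RPS6K kinases, plus RPLP0, RPLP1, RPLP2 and RPSA. This rule found 91 of 20007 protein-coding genes. It took in 77 genes of the core ribosome (31 of the small subunit, 43 of the large subunit and 3 of the P stalk), 10 paralogs, 3 readthrough genes that run from a ribosomal protein gene into its neighbour, and RPS19BP1, which is not a ribosomal protein. Binding of ZNF469, a zinc finger protein, was profiled by CUT&RUN: a nuclease tethered to an antibody releases the DNA next to the bound protein, which is then sequenced. The antibody recognized ZNF469 and the cells were LX-2, an established human line of hepatic stellate origin. A piggyBac transgene, switched on by 1 ug/mL doxycycline for 24 h, supplied either full-length ZNF469 (labelled clone3.4) or dZF, which lacks most of the zinc fingers (labelled clone3.1). Each group had 3 libraries. All 6 libraries came from doxycycline-treated cells, and each construct sat in its own line, so that a difference between constructs and a difference between lines cannot be told apart. The labels do not say whether a clone is one of cells or of plasmid, and peak lists hold no expression values by which LX-2 could be checked against stellate cell markers.

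Cytosolic ribosomes are built from a small subunit, which decodes the mRNA, and a large subunit, which forms the peptide bond, and the acidic P stalk of the large subunit recruits the translation factors. Ribosomal protein genes are highly transcribed from short promoters, usually without a TATA box, in nearly every cell type. Their mRNAs mostly begin with a terminal oligopyrimidine (TOP) tract, a C followed by a run of pyrimidines through which growth signals control translation, and many of their introns encode small nucleolar RNAs that guide the modification of rRNA.

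Promoter sequences are shown for members chosen by summit pileup, by fold or, among core members without a record, by promoter CpG ratio. They were taken from the RefSeq promoter table (GRCh38.p14), which held 72 of the 91 members, 62 of them with the same transcription start as the GENCODE canonical transcript. Each runs 5′ to 3′ on the strand of the gene, from 200 bases before the start through the first 10 transcribed bases. Capitals mark matches to the motifs described further on and the TOP tract at the start. RPL39 and RPL36AL were among the 8 members with the highest summit pileup, RPL31, RPS16, RPSA and RPS26 had, with RPL39, the highest folds at a start that both annotations share, and RPL14 and RPL7A had the highest promoter CpG ratios among the core members without a ZNF469 record. RPL31, RPS16, RPSA and RPS26 were chosen after their values were seen. RPL23A, which the same rule named, had no entry in the table, and the RPS29 entry had another start.
RPL39, chrX:119791621-119791830, minus strand: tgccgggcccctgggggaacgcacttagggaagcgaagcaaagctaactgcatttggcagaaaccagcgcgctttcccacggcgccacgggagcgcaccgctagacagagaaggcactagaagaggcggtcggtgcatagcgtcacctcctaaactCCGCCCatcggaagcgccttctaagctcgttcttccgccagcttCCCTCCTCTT
RPL36AL, chr14:49620617-49620826, minus strand: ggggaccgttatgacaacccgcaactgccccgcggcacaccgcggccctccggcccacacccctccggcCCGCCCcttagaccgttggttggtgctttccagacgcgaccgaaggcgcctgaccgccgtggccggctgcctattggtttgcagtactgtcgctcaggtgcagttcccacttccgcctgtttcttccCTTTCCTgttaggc
RPL31, chr2:101002089-101002298, plus strand: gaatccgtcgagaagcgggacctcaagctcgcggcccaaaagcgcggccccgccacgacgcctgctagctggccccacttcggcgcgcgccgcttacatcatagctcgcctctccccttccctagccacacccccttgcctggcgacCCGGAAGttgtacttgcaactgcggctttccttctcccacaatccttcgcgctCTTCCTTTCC
RPS16, chr19:39435940-39436149, minus strand: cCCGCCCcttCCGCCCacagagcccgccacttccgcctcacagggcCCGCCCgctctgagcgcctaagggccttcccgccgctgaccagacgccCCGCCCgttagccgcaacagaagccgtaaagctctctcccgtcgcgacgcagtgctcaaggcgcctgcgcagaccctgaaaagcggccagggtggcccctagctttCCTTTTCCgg
RPSA, chr3:39406520-39406729, plus strand: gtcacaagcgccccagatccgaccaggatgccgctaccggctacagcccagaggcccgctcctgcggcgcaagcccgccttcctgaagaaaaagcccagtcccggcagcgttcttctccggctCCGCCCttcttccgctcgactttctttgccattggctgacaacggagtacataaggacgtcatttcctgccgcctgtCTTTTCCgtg
RPS26, chr12:56041718-56041927, plus strand: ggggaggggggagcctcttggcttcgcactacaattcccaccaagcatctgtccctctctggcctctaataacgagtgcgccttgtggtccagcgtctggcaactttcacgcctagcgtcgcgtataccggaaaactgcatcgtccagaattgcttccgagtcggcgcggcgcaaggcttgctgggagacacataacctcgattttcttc
RPL14, chr3:40457139-40457348, plus strand: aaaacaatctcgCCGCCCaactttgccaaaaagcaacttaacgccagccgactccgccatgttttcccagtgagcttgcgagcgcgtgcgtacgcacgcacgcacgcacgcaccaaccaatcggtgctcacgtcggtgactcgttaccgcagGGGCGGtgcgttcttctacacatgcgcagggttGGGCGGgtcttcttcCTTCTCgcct
RPL7A, chr9:133348018-133348227, plus strand: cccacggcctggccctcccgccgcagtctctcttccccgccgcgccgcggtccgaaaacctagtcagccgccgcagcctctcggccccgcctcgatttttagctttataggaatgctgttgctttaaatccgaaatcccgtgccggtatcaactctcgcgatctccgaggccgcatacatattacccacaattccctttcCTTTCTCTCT
A TOP tract was found at each of these starts except that of RPS26. The GC-rich SP motif stood in capitals upstream of RPL39, RPL36AL, RPSA, RPL14 and, at 4 places, RPS16, and the ETS motif only upstream of RPL31, 53 bases before its start. In the printed stretches of RPL7A and RPS26 no motif of those searched was found upstream of the start, although RPS26 carried a full-length record there and RPL7A did not.

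The deposited values were 1 list of peak records per construct, with 19108 records for full-length ZNF469 and 54 for dZF. The 3 libraries of a construct were combined in its list, so no value per library, no replicate SD and no test over replicates could be given, and the comparisons below are descriptions. The summit pileup, the number of fragments stacked at the highest point of a record, was recovered from the deposited fold and −log10 p-value. It is given with exact Poisson limits at 95%, and these limits describe counting error alone. The fold is the summit pileup over the local background of the peak caller, with 1 added to each. The number of sequenced reads per library was not analysed here.

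Full-length ZNF469 was found at the promoters of ribosomal protein genes about 2.03 times as often as at those of other genes of similar length. A summit lay within 1 kb of the transcription start in 33 of the 91 members (36.3%), and the share over all 20007 protein-coding genes was 17.8%. Among the 77 core genes it was 32 (41.6%). Other genes whose bodies fell between the 10th and 90th percentile of the members' length (2.78 to 24.9 kb) had such a summit in 1409 of 7891 cases (17.9%). When those genes were also held to the members' range of promoter CpG ratio, from 0.732 to 1.05, the share was 924 of 3423 (27.0%). The members thus stood above both comparison sets, and by less where CpG content was matched. The CpG ratio, the observed CpG count over that expected from base composition, moved with the promoter share in other genes. Of similar-length genes with a ratio of 0.6 or more, 26.3% had a promoter summit, against 4.75% of those with a lower ratio, and all 77 core genes had a ratio of 0.6 or more. Its part in the difference was not tested.

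Counted over the gene body plus 3 kb upstream, a full-length record was found at 39 members (42.9%), beside 36.9% of all protein-coding genes, 25.9% of genes of similar length and 35.6% of those also matched on CpG ratio. The members were short, with a median body of 5.64 kb against 27.6 kb for all other genes and 11.0 kb for the similar-length set, so the wide window gave long genes more room for a record. Where a member had a record, it was mostly at the start. In 84.6% of members with a record, and in 94.1% of core genes with a record, a summit lay within 1 kb of the start, against 68.9% of similar-length genes with a record, 75.9% of those matched on CpG ratio as well and 48.1% of all other genes with a record. A record elsewhere in the window and none at the promoter was found for 6 members (6.59%), 8.06% of similar-length genes and 19.1% of all other genes.

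The promoter share was higher in the members in 4 of 5 classes of gene length. It was 7 of 23 members from 2 to 4 kb (30.4%, against 13.7% of other genes), 13 of 30 from 4 to 8 kb (43.3% against 14.8%), 5 of 13 from 8 to 16 kb (38.5% against 19.0%) and 8 of 21 above 16 kb (38.1% against 19.2%). None of the 4 members under 2 kb had a promoter summit, beside 7.0% of other genes of that length. The classes hold few members, and a single gene moves the share of the 13 members from 8 to 16 kb by several percentage points.

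**Figure D1:**
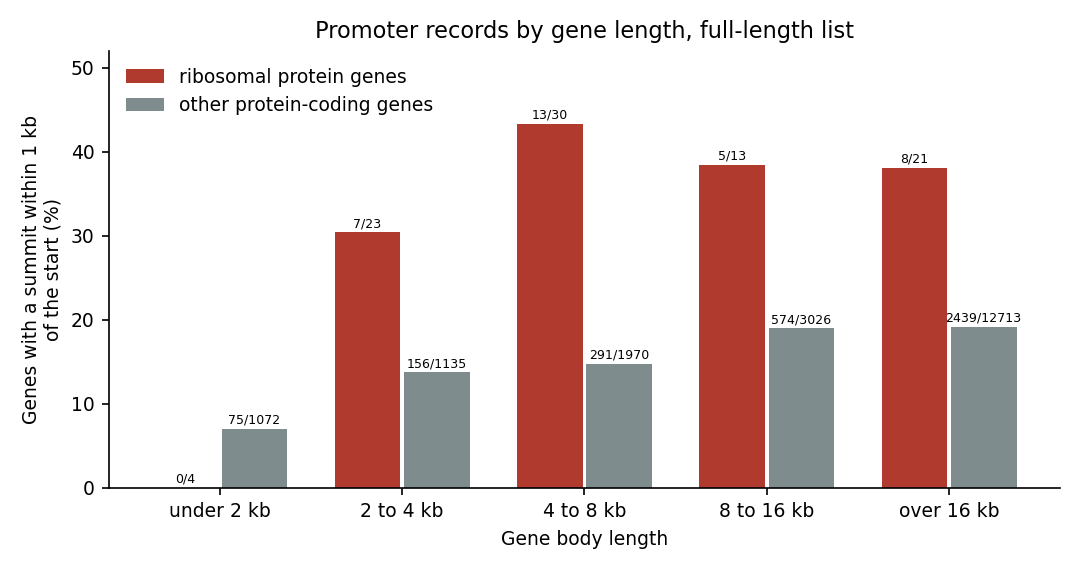
Share of genes with a full-length ZNF469 summit within 1 kb of the transcription start (y axis, %) in 5 classes of gene body length (x axis), for ribosomal protein genes (red) and other protein-coding genes (grey). Numbers above the bars give genes with a summit over genes in the class. The members stand above the other genes in each class but the shortest, which holds 4 members.

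In the small subunit, 11 of 31 genes had a promoter summit (among them RPS2, RPS3A, RPS15A, RPS16, RPS19, RPS24, RPS26, RPS29 and RPSA) and 1 more, RPS3, had a record within its body. Over the 12 promoter records of these genes, the summit pileup ran from 11 to 28 with a median of 17 and the fold from 4.72 to 8.86. The highest was at RPS29, a small zinc-binding protein of the head of the subunit, where the record at chr14:49586366-49586655 rose to 28 fragments (95% limits 18.6 to 40.5) over a background of 2.44, a fold of 8.43, with the summit 80 bp upstream of the start. RPS29 had a further record of 19 fragments (11.4 to 29.7) and fold 4.97 in an intron, far upstream of its canonical start.

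RPS26 was the only member with 2 promoter records. The upstream one rose to 24 fragments (15.4 to 35.7) with a fold of 8.60 and its summit 150 bp before the start, in the sequence printed above. The downstream one held 13 fragments (6.92 to 22.2), had a fold of 4.72, the lowest of the 34 promoter records, and was the only one with its summit after the start, by 95 bp. At RPSA, which also encodes the laminin receptor precursor, the summit of 18 fragments (10.7 to 28.4) lay 147 bp upstream with a fold of 8.62. At RPS16 it had 20 fragments (12.2 to 30.9), a fold of 8.75 and lay 99 bp upstream, beside the SP motif nearest the start in the printed promoter. RPS3, which lines the mRNA entry channel, differed from these genes. Its record at chr11:75418804-75419339, of 31 fragments (21.1 to 44) over 2.42 and fold 9.36, lay in an intron 19584 bp downstream of the start, and no record was found at its promoter.

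The large subunit held promoter summits at 19 of 43 genes (RPL3, RPL4, RPL6, RPL7, RPL9, RPL10, RPL13, RPL13A, RPL15, RPL22, RPL23A, RPL24, RPL26, RPL27, RPL28, RPL31, RPL32, RPL37 and RPL39). Their pileups ran from 9 to 36, with a median of 17, the same as in the small subunit. The median fold was 6.69, against 8.10 in the small subunit, over ranges that overlapped (5.03 to 11.6 and 4.72 to 8.86). RPL23A, which sits by the peptide exit tunnel, had the highest pileup of any promoter record of the members. The record at chr17:28719328-28720172 held 36 fragments (25.2 to 49.8) over a background of 3.96, so that its fold was 7.47, and its summit was 120 bp upstream. RPL39, a small protein of the exit tunnel, had the highest fold. Its record at chrX:119791591-119792148 held 27 fragments (17.8 to 39.3) over 1.42, a fold of 11.6, with the summit 76 bp upstream. The order of these genes therefore depended on whether pileup or fold was read, and their pileups lay within each other's counting limits.

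RPL31, also near the exit tunnel, had the second highest fold at a promoter. The record at chr2:101002145-101002321 had 22 fragments (13.8 to 33.3) over 1.43 and a fold of 9.46, with the summit 51 bp upstream of RPL31 and 6 bp from the start of a lncRNA on the other strand. This summit fell on the ETS motif of the printed sequence. RPL32 had the lowest pileup of all members with a record. At chr3:12841450-12841776 it held 9 fragments (4.12 to 17.1) over 0.989, with a fold of 5.03 and the summit 150 bp upstream. The limits of RPL32 did not reach those of RPL23A, and the pair marks the ends of the range. RPL41, which encodes one of the shortest human proteins, was the exception among large subunit genes. Its record of 31 fragments (21.1 to 44) over 3.69, at chr12:56117930-56118507 with a fold of 6.83, met only the end of the gene, and its summit was 175 bp from the start of ZC3H10.

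In the P stalk, RPLP0, the protein that anchors the stalk, had 23 fragments (14.6 to 34.5) and a fold of 7.21 at 68 bp upstream, and RPLP2 had 15 fragments (8.39 to 24.7) and a fold of 6.72 at 301 bp upstream. RPLP1, the dimer partner of RPLP2, had no record. The limits of RPLP0 and RPLP2 overlapped.

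Of the 10 paralogs, RPL36AL alone had a promoter summit. Its record at chr14:49620262-49620908 held 31 fragments (21.1 to 44) over a background of 4.31, the highest background among the members' promoter records, with a fold of 6.03. The summit lay between RPL36AL and MGAT2, a gene of N-glycan processing that runs the other way. It was about as far from the start of RPL36AL (89 bp) as from that of MGAT2 (84 bp). RPL26L1, RPS27L and RPS4Y1 had records elsewhere in their windows. The record at RPL26L1, a near copy of RPL26, had the highest pileup and fold of all the members. At chr5:172955572-172955980 it rose to 42 fragments (30.3 to 56.8) over 2.33, a fold of 12.9, and lay 3610 bp from the canonical start of RPL26L1, outside the gene. RPS27L, a p53-induced relative of RPS27, had 3 records inside its body with folds of 5.30, 5.71 and 6.11. RPS4Y1, the Y-linked copy of RPS4X, had 1 intronic record at chrY:2860634-2860928 of 11 fragments (5.49 to 19.7) over 0.865 and fold 6.43, 19131 bp from its start.

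Among the readthrough genes, RPL36A-HNRNPH2 had 1 record. At chrX:101407665-101408363 it held 33 fragments (22.7 to 46.3) over 1.95, a fold of 11.5. It lay in an intron 124 bp from the start of GLA, which encodes alpha-galactosidase A, and RPL36A itself had no record. RPS19BP1 had none. Of the 5 members with the highest folds, RPL39 and RPL31 had the record at their start, and RPL26L1, RPL36A-HNRNPH2 and RPS3 had it over 3 kb from the canonical start.

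**Figure D2:**
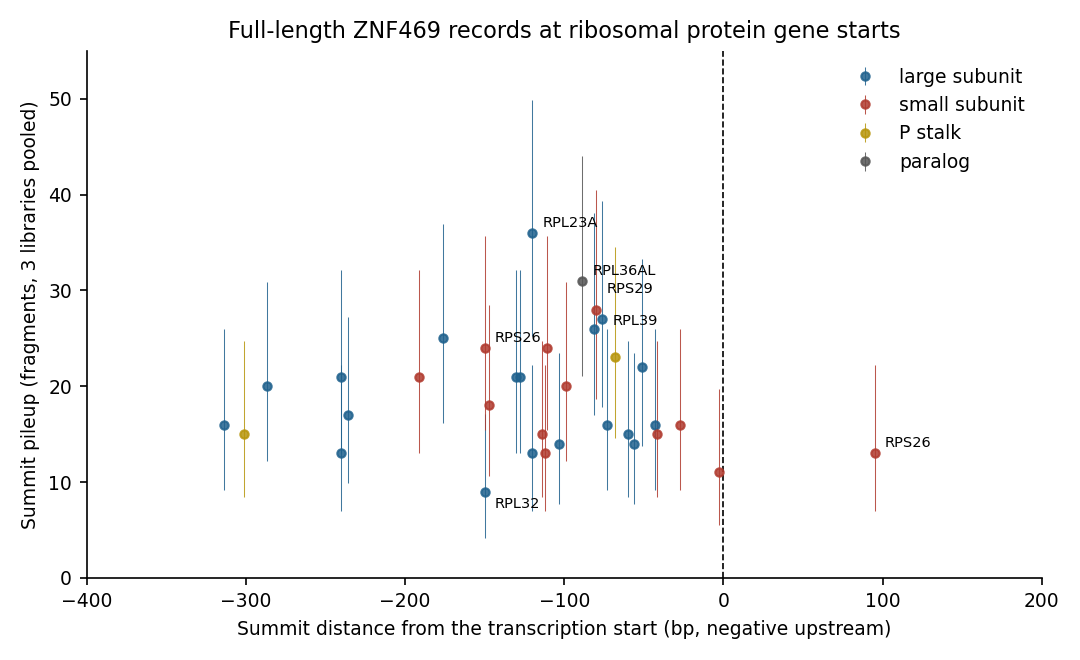
Summit pileup (y axis, fragments in the 3 pooled full-length libraries) against the distance of the summit from the canonical transcription start (x axis, bp, negative upstream) for the 34 promoter records of ribosomal protein genes, coloured by subunit. Bars are exact 95% Poisson limits of the pileup, and the dashed line is the start. The records lie between -314 and 95 bp, all but 1 of RPS26 upstream of the start, with pileups from 9 (RPL32) to 36 (RPL23A).

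The summits were held close to the start. The median distance over the 34 promoter records of the members was -111.5 bp, with quartiles of -150 and -69.25 bp. The median of 1372 promoter records of similar-length genes was almost the same, -111 bp, but their quartiles were wider, at -201.2 and -50 bp. Of the members' summits 33 of 34 (97.1%) lay in the 350 bp upstream of the start, against 71.1% in similar-length genes. The remaining summits of the other genes were spread over the whole 2 kb searched. Between 400 bp and 1 kb from a start, on either side, no member summit was found. The 350 bp band ends just past the farthest member summit, so the members' share in it follows partly from where it was cut. The gap was likewise read from the same 34 summits. With 34 records from single pooled lists the difference in position was not tested. RPL4, at -314 bp, was the farthest of the members.

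**Figure D3:**
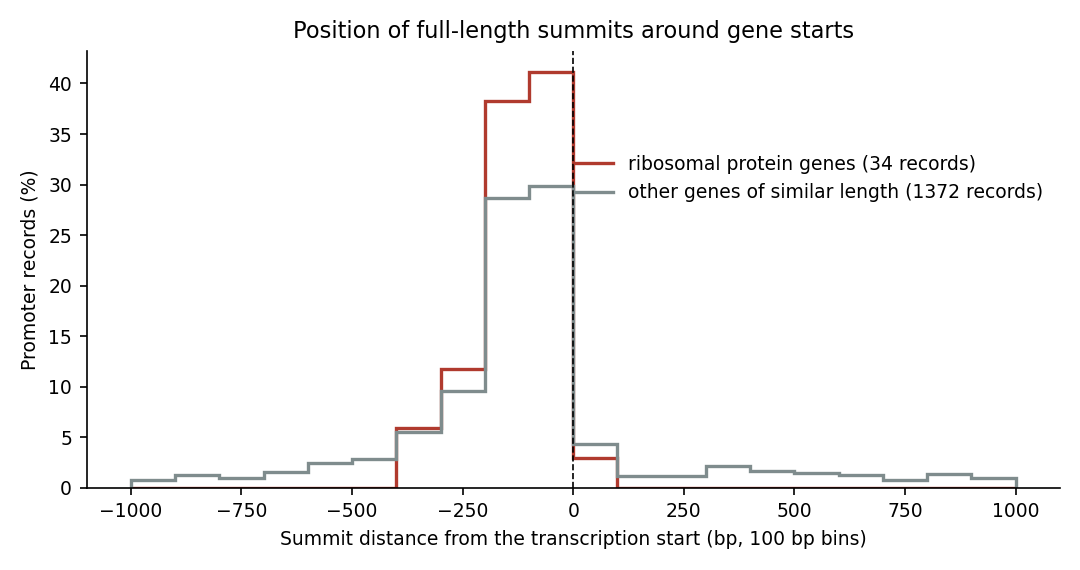
Share of promoter records (y axis, %) by the distance of the summit from the transcription start in bins of 100 bp (x axis, bp, negative upstream), for 34 records of ribosomal protein genes (red) and 1372 records of other genes of similar length (grey). Both peak in the 200 bp before the start, where the bins hold 38.2% and 41.2% of the members' records and 28.7% and 29.8% of the others.

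The records at the members were lower at the median than those of other genes. Their median fold was 7.22 (quartiles 6.40 and 8.29, range 4.72 to 11.6), against 7.66 (6.45 and 9.18) at promoters of similar-length genes. The median pileup was 17.5 (15 and 22.75) against 21 (16 and 27), and the median width was 328.5 bp against 401 bp. The deposited score, which scales reproducibility between replicates up to 1000, was at its maximum in 5 of the members' 34 records (14.7%), RPL10, RPL15, RPL23A, RPL39 and RPS2, and in 34.5% of those of similar-length genes. Each of these measures was thus lower at the median or share in the members, although their ranges lay within those of the other genes. The higher promoter share of the members was kept among the upper 50% of records by fold and not among the upper 25%. With the upper 50%, 16.5% of members and 10.7% of similar-length genes had a promoter summit. With the upper 25%, it was 4.4% of members (RPL31, RPL39, RPS2 and RPS16) and 6.35% of similar-length genes, and with the upper 25% by pileup it was 4.4% and 4.77%. At 25% the members' shares rest on so few genes that they are loose. The genes matched on CpG ratio were not counted under these limits. The values of the similar-length genes under these limits were added after the data were seen.

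**Figure D4:**
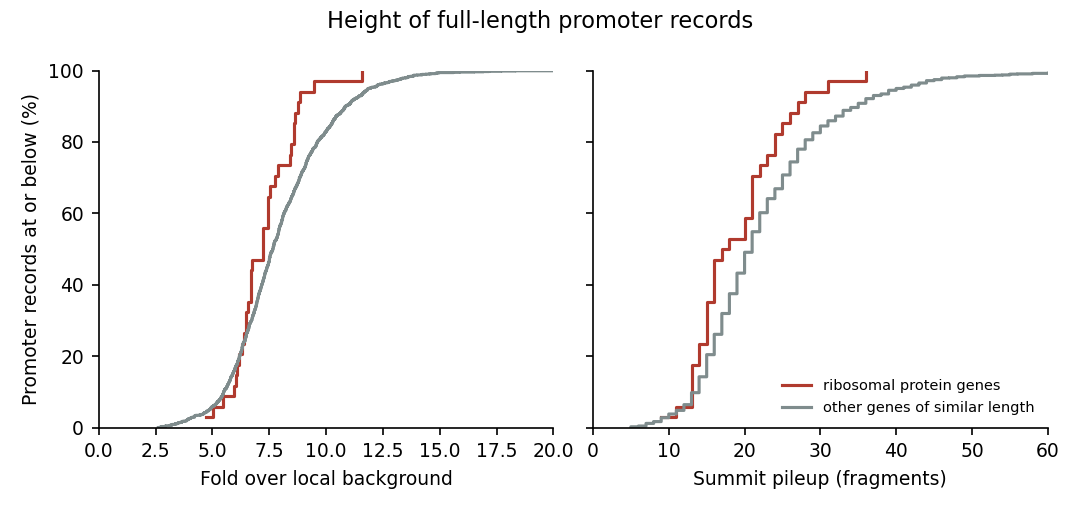
Cumulative share of promoter records (y axis, %) at or below a given fold over local background (left) or summit pileup in fragments (right), for ribosomal protein genes (red, 34 records) and other genes of similar length (grey, 1372 records). The curves of the members have the lower medians, 7.22 against 7.66 and 17.5 against 21. They end at a fold of 11.6 and a pileup of 36, but where a curve ends depends on the number of records.

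Some of the promoters are shared. For 8 of the 34 promoter records of the members the start of another gene was nearer to the summit than that of the member. Besides RPL36AL and RPL31, these were the records of RPL15 (12 bp from NKIRAS1, an inhibitor of NF-κB signalling), RPL9 (6 bp from LIAS, the lipoic acid synthase), RPL4 (157 bp from ZWILCH, a kinetochore protein) and RPS2 (42 bp from SNHG9, a snoRNA host), and those of RPS26 and RPL26, near lncRNAs. Without records of this kind, 28.6% of members and 13.5% of similar-length genes kept a promoter summit, a count added after the data were seen. A neighbour starting within 1 kb in the opposite direction was found for 12 of the 32 core genes with a promoter summit (37.5%) and 18 of the 45 without (40.0%), which are similar shares.

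Core genes with and without a promoter summit had similar base composition at the start and differed in median length. The median CpG ratio was 0.940 with and 0.914 without a summit. The median body was longer in those with a summit, at 6.72 kb against 4.52 kb. The ranges overlapped, at 2.78 to 28.2 kb with and 1.38 to 80.4 kb without a summit, and the difference was not tested. A snoRNA gene lay within 14 of the 32 genes with a summit (43.8%) and 14 of the 45 without (31.1%). No record of a member overlapped a snoRNA gene lying within that member on the same strand. Other snoRNA genes were not checked, and most promoter summits lay upstream of the gene's start, away from its introns.

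The motif searches covered 250 bases before to 50 after the start on both strands. The ETS motif CCGGAAG, bound by factors such as GABP, was found in 35.1% of core promoters, against 15.1% of those of similar-length genes and 14.1% of all. The share was 34.4% in core promoters with a summit and 35.6% in those without. The YY1 motif AAGATGGC was found in 13.0% of core promoters and 4.05% of all, again alike with and without a summit (12.5% and 13.3%). Both motifs were thus more frequent in core promoters than in all promoters, with similar shares in core genes with and without a summit. In similar-length genes both were more frequent where the promoter had a summit. There the ETS motif was in 24.0%, against 15.1% of all similar-length genes, and the YY1 motif in 8.16%, against 3.9%. The SP motif GGGCGG was in 50.0% of core promoters with and 66.7% without a summit (61.3% of all), while in similar-length genes with a promoter summit it was in 73.2%, against 58.5% of all similar-length genes. The CRE motif TGACGTCA was in 3 of 32 and 1 of 45 core promoters (2.69% of all), and the E-box CACGTG in 2 of 32 and 3 of 45 (8.76% of all). TATAAA on the sense strand in the 50 bases before the start was found in 3 of the 77 core promoters (4.19% of all).

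The AP-1 motif TGANTCA was found within 100 bp of the summit in 42.0% of all 19108 full-length records and in 49.1% of those outside promoters of coding genes, and in none of the 34 promoter records of the members. In promoter records of similar-length genes the share was also low, at 6.27%, so that the low share was not particular to the members. The records of members away from the start included some with the motif, at RPL26L1, RPS3, RPS4Y1 and RPS27L and upstream of RPL26. A TOP tract, taken as a C within 5 bases of the start followed by at least 4 pyrimidines, was at 66 of the 77 core starts (85.7%) and 21.9% of all. It was at 81.3% of core starts with a summit and 88.9% without, and similar-length genes had a promoter summit in 17.6% of cases with a tract and 17.9% without.

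Related genes of translation showed promoter summits to unequal extents. The cytosolic ribosomal protein genes outside the symbol rule, such as FAU and RACK1, had none at the promoter. Genes of mitochondrial ribosomal proteins had one in 20 of 79 cases (25.3%), close to the 27.0% of genes matched on length and CpG ratio. A list of elongation factors, eIF4 factors and other genes had one in 9 of 17 cases (52.9%). Its genes were chosen by name, a TOP tract was not required of them, and eIF3 subunits were listed apart. These were EEF1A1, EEF1B2 and EEF1G, which encode elongation factor subunits, EIF4A1, EIF4B and EIF4E of the cap-binding machinery, HNRNPA1, NAP1L1 and TPT1. EEF1A1 held 48 fragments (35.4 to 63.6) and a fold of 7.11, a pileup above that of every member. Ribosome biogenesis factors had a promoter summit in 15 of 30 cases (50.0%), among them NCL, the nucleolar protein nucleolin, and NHP2, a snoRNP protein with a fold of 11.3. The subunits of the initiation factor eIF3 had one in 1 of 13 (7.69%, EIF3D) and RNA polymerase I genes in 2 of 14 (14.3%, POLR1E and TAF1D). The share over all protein-coding genes was 17.8%, and lists as short as these 2 cannot be told apart from it. The core ribosomal protein genes, at 41.6%, lay between these lists in the 1 kb window. Of their 33 promoter records, 32 had the summit in the 350 bp upstream of the start, a band cut from the members' own summits. It was 10 of 15 records in ribosome biogenesis genes, 7 of 10 in the list with the elongation factors and 15 of 22 in mitochondrial ribosomal protein genes. The order of the lists in a narrower window was not counted.

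**Figure D5:**
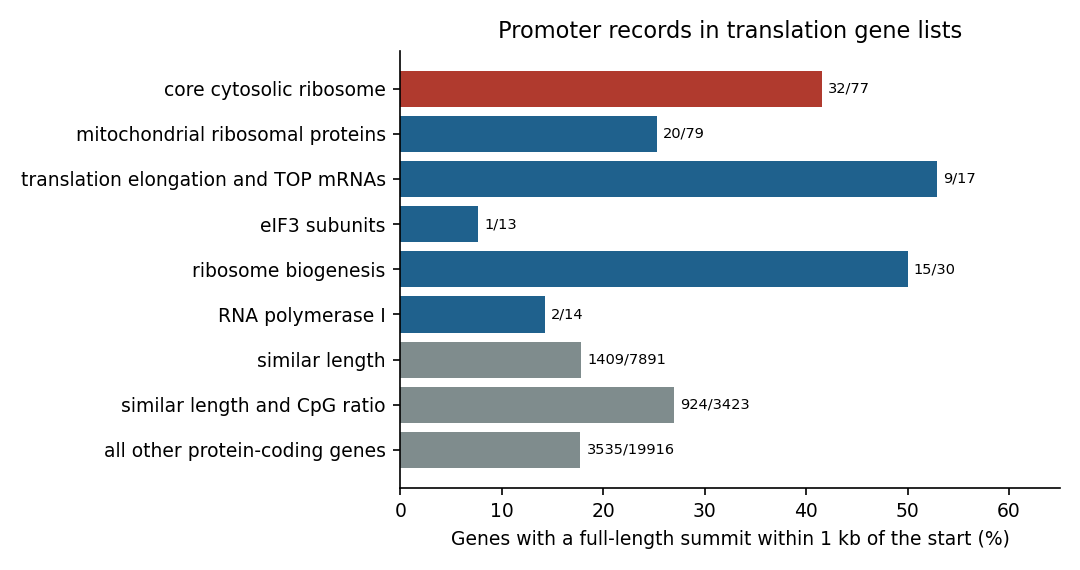
Share of genes with a full-length summit within 1 kb of the transcription start (x axis, %) in the core ribosomal protein genes (red), 5 lists of translation genes (blue) and 3 comparison sets (grey). Numbers beside the bars give genes with a summit over genes in the list. They run from 1 of 13 eIF3 subunits to 9 of 17 in the list labelled elongation and TOP mRNAs, with 32 of 77 in the core ribosome. A TOP tract was not required of the genes so labelled.

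No member had a dZF record in its body or the 3 kb upstream. Over all protein-coding genes the dZF list reached 12 of 20007 (0.06%), and the nearest dZF record to a member start, that of RPL35A, was 223.7 kb away. Depth was gauged only from the lowest local background, which was 0.625 fragments in the dZF list against 0.865 in the full-length list, a ratio of 1.38. With pileup and background divided by this ratio, 30 of the 34 promoter records of the members (88.2%) stayed above a −log10 p-value of 7.63, the least significant of the dZF records, as did 85.3% of all full-length records. The lowest dZF background was taken over only 54 records, against 19108, so the depth ratio could be larger than 1.38 and the share that stayed above lower. The scaling also covered only records that had passed in the full-length list, so it cannot tell whether dZF would have yielded a record. The lists also passed the reproducibility filter separately, and its effect on the number of dZF records was not tested.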

How the data were processed

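ZNF469 CUT&RUN in LX-2 cells was analysed from the peak lists that the authors deposited, 1 per construct, each combining 3 libraries and filtered by irreproducible discovery rate. The submitters' processing notes name Bowtie2 2.3.4.3, MACS2 2.2.5 and hg38. Per record, the deposited values were a score scaled from that rate, a fold ratio over local background, a −log10 p-value, a −log10 q-value (not used) and the summit offset. Whether a control library was used is not given in the sources used here. Whole-number pileups were solved from fold and −log10 p-value (largest miss 6.9e-05 in −log10 p), a step tested on simulated data. The Poisson limits (95%) cover counting error only.

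Genes, lengths and starts (Ensembl canonical transcript) came from GENCODE 44, and CpG ratio and motifs from the hg38 sequence, with Python 3.11, pandas 2.3.3, numpy 2.4.6, scipy 1.17.1 and matplotlib 3.10.9. A record counted when it overlapped the gene body plus 3 kb upstream by 1 bp. A promoter record had its summit within 1 kb of the start. The members and lists were chosen with earlier results of these data known. Full values are given for the 8 members with the highest pileup, the 5 with the highest fold, the 3 with the lowest pileup and any with a dZF record. Promoters are printed for the first of these with a summit within 1 kb and for the 3 core members without a record with the highest CpG ratio. Some members that these rules name are not reported here. Alternatives changed the window, the overlap, the records kept, the members and the comparison genes.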

Additional observations from a re-analysis of the deposited data

How the results depend on the processing

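No paired analysis was possible because the deposited lists hold no value per library, and for the same reason leaving out a library was not run. Of 59 alternatives over 8 results, 41 stayed within the counting interval or spread of the value reported and 18 moved. The 5 settings tried on the dZF list narrowed the window or dropped records, so that its count of 0 could not rise and they say nothing of its stability. The cause was not tested beyond what each setting does by construction. Keeping fewer records lowered the shares. With the upper 50% by fold, the members' share with any record was 19.8% and with a promoter summit 16.5%, that of similar-length genes 10.7%, and the members' median fold 8.46. With the upper 25% by fold these were 7.69%, 4.4%, 6.35% and 9.16, with a median pileup of 23. With the upper 25% by pileup the shares were 8.79%, 4.4% and 4.77%. Among the upper 25% the members' promoter share was therefore not above that of similar-length genes, but it rests there on few members. The share of similar-length genes was 21.3% with a promoter of 3 kb, 15.9% with 500 bp and 20.5% with the start of any transcript. It was 15.8% with length classes weighted as in the members, 27.0% with CpG ratio matched and 13.5% without records nearer to another gene. Each was below the 36.3% of members in the main setting. The members' own share was 37.4% with 3 kb and 36.3% with 500 bp or the start of any transcript. Without records nearer to another gene it was 28.6%. With the 5′ end of the gene record as the start it was 30.8%, against 17.4% of similar-length genes.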

Other observations

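Processed pseudogenes of ribosomal protein genes, which are intronless copies of their mRNAs scattered over the genome, showed few records. Of 1600 annotated copies, 10 (0.625%) had a full-length record over their body and 14 (0.875%) a summit within 1 kb of their start. For 12630 other processed pseudogenes the shares were 0.895% and 0.926%. Reads from a gene and from a near-identical copy can be hard to place, and how the authors treated such reads is not given in the sources used here. Its part in these shares was not tested.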
